A study of Mus musculus with 4 samples.

Results

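The C/EBP transcription factor family was taken as Cebpa, Cebpb, Cebpd, Cebpe, Cebpg, Cebpz and Ddit3, and its members were found as the array probes that carry one of these 7 gene symbols or an older synonym, whatever their values. Of the 7 genes, 6 had a probe, with 1 probe each, among 26423 probes in all, and Cebpz is not analysed here. The cells were 3T3-L1, a clonal mouse fibroblast line committed to the fat lineage, kept in DMEM with serum. All 4 samples received an adipogenic mixture, named MDI in the labels, of isobutylmethylxanthine at 0.5 mM, dexamethasone at 1 µM and insulin at 1 µg/ml for 48 hours. The sample titles name a control group (2 samples) and a berberine group (2 samples). In the berberine group the plant alkaloid berberine was present at 13.47 µM over the same 48 hours. The treatment text names berberine for all 4 samples, so the groups follow the titles, and the controls are taken to be without it. No sample without the mixture was analysed, so every value describes cells under induction. Whether the 2 samples of a group came from separate cultures is not stated, so p-values cover only the array-to-array spread, which can be technical.

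C/EBP proteins are basic leucine zipper factors that bind DNA as dimers with each other or with related factors. In fat cell differentiation, the mixture first switches on Cebpb and Cebpd, whose proteins then activate Cebpa and Pparg, and C/EBPα and PPARγ keep each other and the adipocyte genes active. Cebpg and Ddit3 encode family members that pair with the others, and the Ddit3 product, CHOP, carries an altered basic region that keeps its dimers off ordinary C/EBP sites. CHOP is also a textbook product of the PERK and ATF4 branch of the stress response.

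The promoters of the members that matched the RefSeq table are shown first, because the inducers in the mixture act on early family members through DNA-bound factors such as CREB and the glucocorticoid receptor. The table held 4 of the 7 genes. Cebpd, Cebpe and Cebpz were not in it, so no motif was searched in their promoters. Each line gives the 250 bases upstream of the annotated start, 5′ to 3′ along the gene, in build GRCm38.p6, with every match to a searched motif in capitals. The windows lie at chr7:35119043-35119292 (plus strand) for Cebpa, chr2:167688665-167688914 (plus strand) for Cebpb, chr7:35056567-35056816 (minus strand) for Cebpg and chr10:127290543-127290792 (plus strand) for Ddit3.
Cebpa: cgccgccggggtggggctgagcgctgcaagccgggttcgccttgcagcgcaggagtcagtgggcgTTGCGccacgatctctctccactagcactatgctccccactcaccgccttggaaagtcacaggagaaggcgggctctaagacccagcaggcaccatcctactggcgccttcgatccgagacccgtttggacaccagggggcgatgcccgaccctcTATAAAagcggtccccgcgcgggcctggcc
Cebpb: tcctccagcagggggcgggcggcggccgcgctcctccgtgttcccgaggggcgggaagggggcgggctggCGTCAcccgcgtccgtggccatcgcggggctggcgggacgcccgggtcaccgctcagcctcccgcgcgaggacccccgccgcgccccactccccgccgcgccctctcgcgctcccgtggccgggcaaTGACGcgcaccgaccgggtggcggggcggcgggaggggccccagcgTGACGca
Cebpg: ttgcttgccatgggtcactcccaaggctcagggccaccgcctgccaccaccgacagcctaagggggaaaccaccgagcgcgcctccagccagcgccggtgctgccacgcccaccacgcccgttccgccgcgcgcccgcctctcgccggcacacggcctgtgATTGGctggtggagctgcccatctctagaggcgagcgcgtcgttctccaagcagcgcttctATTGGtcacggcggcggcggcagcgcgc
Ddit3: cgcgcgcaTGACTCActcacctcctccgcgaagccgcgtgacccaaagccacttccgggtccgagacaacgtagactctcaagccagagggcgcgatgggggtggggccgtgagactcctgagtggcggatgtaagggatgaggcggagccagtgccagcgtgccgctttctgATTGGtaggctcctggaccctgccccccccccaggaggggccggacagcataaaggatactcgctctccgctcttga

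Searched on both strands were 11 motifs, and 5 of them were found in at least 1 of the 4 windows. The Cebpa window held 1 C/EBP core (TTGCG, at -185 to -181 from the start) and 1 TATA box (TATAAA, at -30 to -25). Of 32536 promoter windows of this length, 14.6% held such a core and 12.3% such a TATA box. The Cebpb window held 3 cores of the cAMP response element (TGACG, at -180, -53 and -7), a motif in 17.9% of windows, and no other motif of the search. CREB, the factor activated by the cAMP that isobutylmethylxanthine preserves, binds this element. The Cebpg window held 2 CCAAT boxes (CCAAT, at -89 and -28, both on the opposite strand), and the Ddit3 window held 1 CCAAT box (at -77, also opposite) and 1 AP-1 motif (TGANTCA, at -242). CCAAT boxes were in 33.8% of all windows and AP-1 motifs in 6.73%. The 6 motifs without a match in these 4 windows were the full C/EBP palindrome (TTGCGCAA, 0.166% of windows), the C/EBP site with a free centre (TTGCNNAA, 9.57%), the C/EBP-ATF composite (TGATGNAA, 3.4%), the full cAMP response element (TGACGTCA, 1.56%), the core of the glucocorticoid response element (ACANNNTGT, 5.82%) and the E-box of USF (CACGTG, 6.04%). The palindrome contains the C/EBP core and the full cAMP response element contains its own, so these shares overlap. A match describes letters in the window and is not evidence of binding. Bases outside the windows were not searched, so a missing match does not show that a gene lacks the motif further upstream or downstream. The windows were rich in G and C (64.8% to 81.6%, against a median of 52.4% over all windows).

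**Figure D1:**
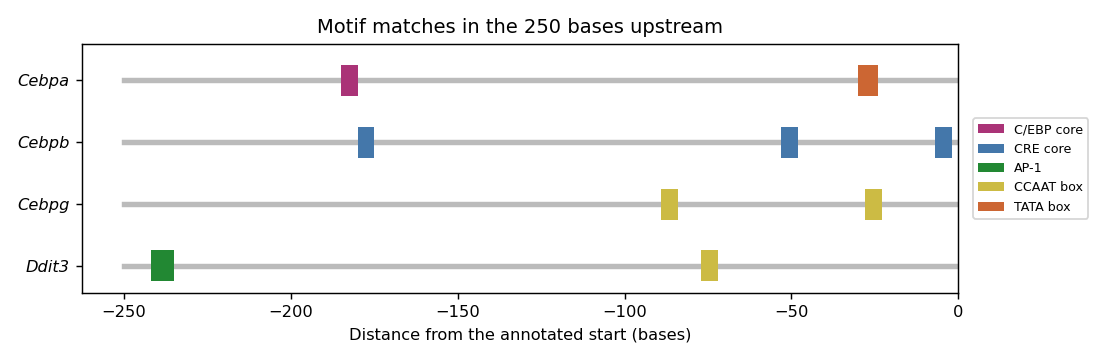
Motif matches in the 250 bases upstream of 4 C/EBP family genes, with distance from the annotated start in bases on the horizontal axis and 1 line per gene. Coloured bars are matches of the 5 motifs found: Cebpa carries 1 C/EBP core and 1 TATA box, Cebpb 3 cAMP response element (CRE) cores, Cebpg 2 CCAAT boxes and Ddit3 1 AP-1 motif and 1 CCAAT box.

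The arrays differed in overall brightness, with median deposited intensities of 423 and 350 in control and 237 and 280 with berberine, so values were quantile-normalized before testing. Of the 26408 probes fitted by limma, 17.7% were lower and 27.1% higher with berberine at an adjusted p (Benjamini-Hochberg over all probes) under 0.05. That split moved with the scaling: 4674 probes were lower and 7164 higher after quantile normalization, 4291 and 2396 in the deposited values, and 3311 and 10694 with arrays centred on their median. Over all probes the log2 change had a median of 0.17, -0.05 and 0.52 in these settings, and 0.26 with arrays scaled on the 75th percentile. Exact permutation of 2 against 2 arrays gives no two-sided p under 0.333, so each call rests on limma's pooled spread. Markers of cell types were then read. All 10 measured markers of preadipocyte fibroblasts, Pdgfra, Vim and Col1a2 among them, were above the floor in at least 1 group. The floor is the level that 25% of normalized values lie under (log2 6.58), so being above it does not identify a cell type. Their summed deposited intensity was 463623 to 578443 in control and 437700 to 490653 with berberine, so the groups overlapped, with Vim, S100a4 and Col1a2 bright in both. Of the 10, 4 were lower and 4 higher: Fn1, fibronectin, ended below the floor, an at least 326-fold fall, Dlk1, a preadipocyte marker, fell 3.09-fold and Col1a1, a collagen chain, rose 2.81-fold. The summed intensity of 12 mature adipocyte markers was 647798 to 775992 in control and 48988 to 55949 with berberine, and 9 of the 12 were lower and 2 higher. In bulk RNA, fewer cells of a type and less RNA per cell cannot be told apart, and the part of this shift in the family's changes was not tested. Of 5 macrophage markers 1 was lower and 1 higher. Cd68, Csf1r, Itgam and Ptprc were above the floor in both groups and Adgre1 was under it in both. The summed intensity of the 5 was 1335 to 1337 in control and 885 to 995 with berberine. Of 3 skeletal muscle markers 1 was higher. Des and Acta1 were above the floor in both groups and Ckm was under it in both. The sum of the 3 was 1033 to 1750 in control and 1462 to 1693 with berberine.

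Among the 6 family probes, 4 were lower with berberine, 0 were higher and 2 did not pass, against 17.7% of all probes lower, or 26.8% of the probes above the median control level. By fitted log2 change Cebpa fell most, then Ddit3, while Cebpg and Cebpd fell by less, and Cebpb and Cebpe did not pass. Both berberine arrays lay below both control arrays at 5 of the 6 after normalization, as they did at 28.2% of all probes. The 4 falls kept their direction and passed the threshold under the 3 other scalings (deposited, median and 75th percentile). Each gene rests on a single probe, so no fall could be checked at another probe of the gene.

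**Figure D2:**
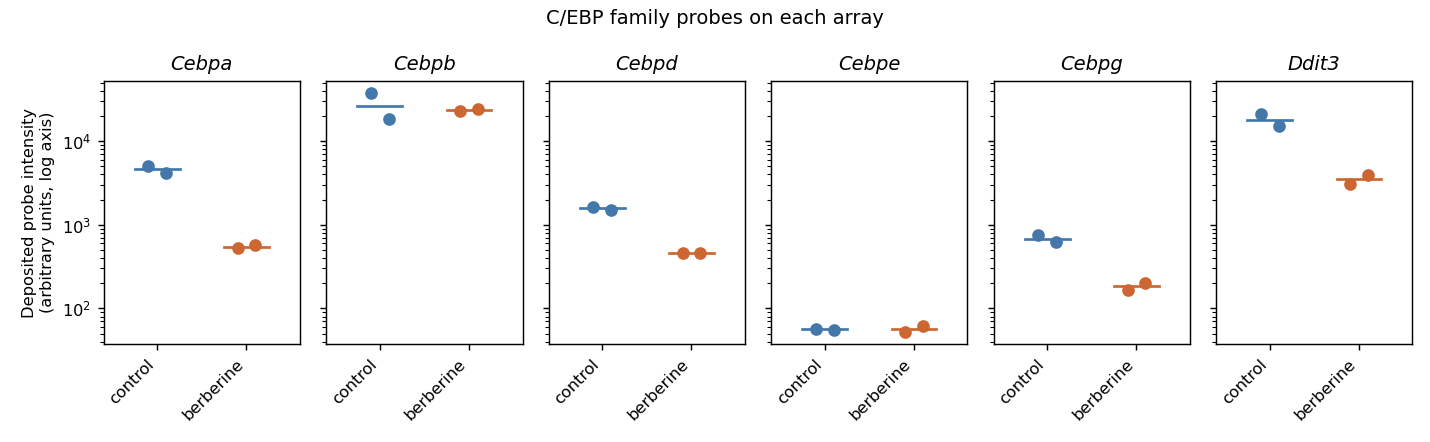
Deposited intensity (arbitrary units, log axis) of each C/EBP family probe on the 2 control and 2 berberine arrays, with points for arrays and bars for the geometric mean of a group. Cebpa, Cebpd, Cebpg and Ddit3 are lower on both berberine arrays, the berberine values of Cebpb (22951 and 24507) lie between the 2 control values, and Cebpe is dim on all 4 arrays.

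The early inducers were read first. Cebpb encodes C/EBPβ, the first family member to rise after induction, and one mRNA yields its activating and inhibitory protein forms, which an mRNA array cannot separate. Its deposited intensity was 37584 and 18518 in the controls and 22951 and 24507 with berberine. The berberine arrays thus lay between the control arrays. Normalized, the arrays read 15.11 and 14.46 in control and 14.44 and 14.41 with berberine on the log2 scale, so that both berberine values were just below the lower control. The mean level was 14.79 ± 0.46 (log2, SD, n = 2) in control and 14.42 ± 0.024 with berberine. The log2 change of -0.37 (95% interval -0.99 to 0.25) did not pass (limma adjusted p = 0.270). It passed without control replicate 2 (-0.69, adjusted p = 0.0296), and the sign turned when arrays were centred on the median (0.41) or scaled on the 75th percentile (0.15).

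Cebpd encodes C/EBPδ, which the glucocorticoid in the mixture induces alongside Cebpb. Its intensity was 1617 and 1520 in the controls and 455 and 461 with berberine, with no overlap and close pairs within both groups. The normalized level fell from 10.36 ± 0.23 to 9.16 ± 0.11 (log2, SD, n = 2 each), a 2.30-fold fall (log2 change -1.20, SE 0.16, limma adjusted p = 0.00438). The call was lost without berberine replicate 1 (adjusted p = 0.0597) and without berberine replicate 2 (0.0773), with the fall at 1.26 and 1.11 on the log2 scale. Other scalings put the log2 change between -1.78 and -1.21.

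Cebpa encodes C/EBPα, the factor that maintains the differentiated state and insulin sensitivity of fat cells. Its probe read 5105 and 4184 in the controls and 526 and 574 with berberine, the widest gap among the members. The level fell from 12.16 ± 0.10 to 9.41 ± 0.035 (log2, SD, n = 2 each), which is 6.73-fold (log2 change -2.75, SE 0.13, limma adjusted p = 0.000215). Only 3.50% of all probes had a lower log2 change. Leaving out 1 array at a time gave log2 changes of -2.91 to -2.63, all past the threshold, and the other scalings gave -3.07 to -2.51.

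Cebpe, which encodes C/EBPε, a factor of granulocyte maturation, was dim throughout. Its intensity was 57 and 55 in the controls and 52 and 61 with berberine, so the groups overlapped and both lay under the floor. No fold is given. The fitted log2 change was -0.04 (limma adjusted p = 0.890), and centring on the median gave 0.57 (adjusted p = 0.0329) for a probe whose level was not above the floor.

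Cebpg encodes C/EBPγ, a short family member that lacks the usual activation domain and works through its partners, ATF4 among them. It read 749 and 614 in the controls and 168 and 204 with berberine, without overlap. The normalized level fell 2.46-fold, from 9.09 ± 0.028 to 7.79 ± 0.0057 (log2, SD, n = 2 each; log2 change -1.30, SE 0.12, limma adjusted p = 0.00132). Without 1 array at a time the log2 change was -1.34 to -1.27 and stayed past the threshold. Cebpg lies near Cebpa on chromosome 7. Of the nearest measured genes beyond this pair, Pepd, a dipeptidase gene, did not pass (log2 change -0.08, adjusted p = 0.651), and Slc7a10 was under the floor in both groups. Further out past Pepd, Chst8 was higher (0.62, under the floor in control) and Kctd15 was lower (-1.45, limma adjusted p = 0.00129). Past Slc7a10, Lrp3 and Wdr88 did not pass.

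Ddit3, the CHOP gene, was bright in control and fell with berberine. Its intensity was 20831 and 15096 in the controls and 3110 and 3883 with berberine, again without overlap. The level fell 5.27-fold, from 14.21 ± 0.075 to 11.82 ± 0.11 (log2, SD, n = 2 each; log2 change -2.40, SE 0.13, limma adjusted p = 0.000333), and 4.38% of all probes had a lower change. After centring the fall was 1.79 on the log2 scale, and without 1 array at a time the change was -2.49 to -2.27.

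**Figure D3:**
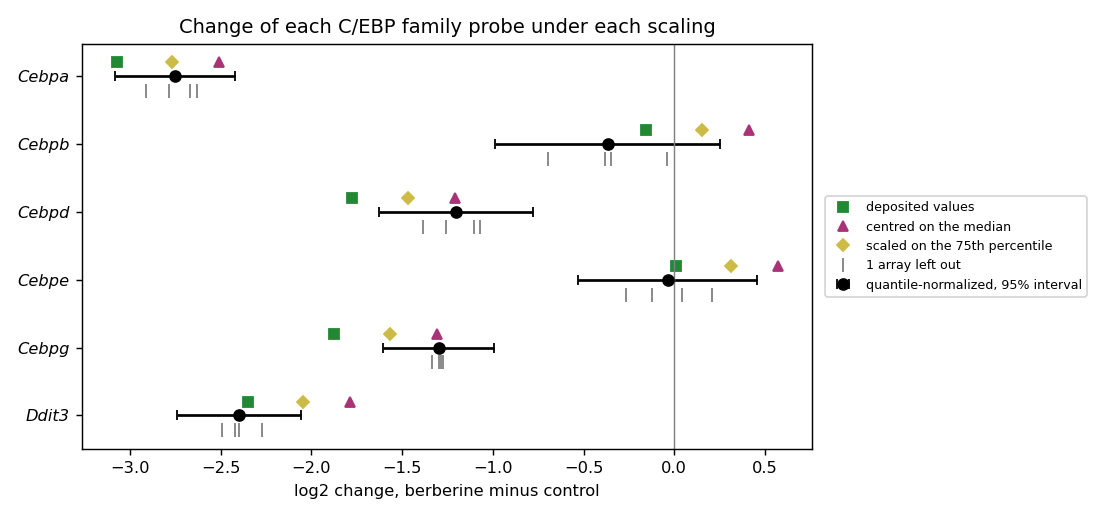
Log2 change (berberine minus control, horizontal axis) of each C/EBP family probe, with black points and 95% limma intervals for quantile-normalized values, coloured symbols for other scalings and grey ticks for fits without 1 array. Cebpa, Cebpd, Cebpg and Ddit3 stay below 0 in every setting drawn, while Cebpb and Cebpe cross 0 between scalings.

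The members did not fall by equal amounts. The ratio of 2 probes within an array is untouched by a single multiplier per array, though not by an offset or by quantile normalization. The change in each ratio among the 5 members above the floor was therefore taken both from the deposited and from the quantile-normalized values, as a description without a test, and the ratios share probes. Relative to Cebpb, Cebpa fell by 2.92 on the log2 scale (control SD 0.52, berberine SD 0.022) in the deposited values and fell by 2.38 in the normalized ones. Relative to Cebpd it fell by 1.30 and 1.55, and relative to Cebpg it fell by 1.20 and 1.45. Relative to Ddit3 it fell by 0.72 (control SD 0.13, berberine SD 0.14) and 0.35, without overlap of the groups in either. The ratio of Cebpg to Ddit3 was 0.48 higher with berberine in the deposited values (control SD 0.13, berberine SD 0.028) and 1.10 higher in the normalized ones. The groups overlapped for Cebpd and Cebpg, whose ratio changed by 0.10 (control SD 0.14, berberine SD 0.18) and 0.09. Cebpa and Ddit3 thus fell further than Cebpg and Cebpd in the deposited and the normalized values, and the last pair could not be ordered. The fall of Cebpa was the larger of the first pair in both. Their 95% intervals overlapped (log2 change -3.08 to -2.42 for Cebpa, -2.74 to -2.06 for Ddit3), and the difference was not tested.

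**Figure D4:**
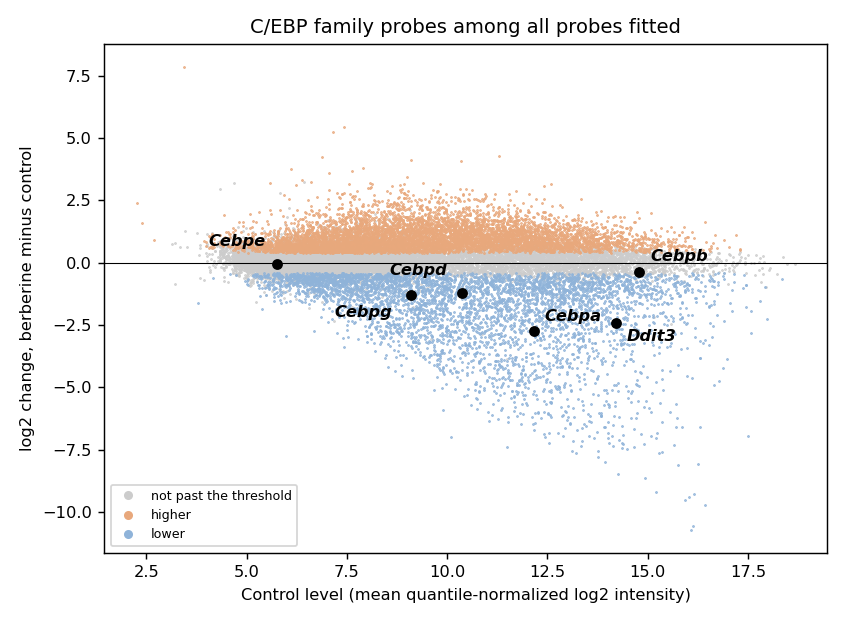
Log2 change (berberine minus control) against control level (mean quantile-normalized log2 intensity) for the 26408 probes fitted, coloured by call, with C/EBP family probes in black. Cebpa (-2.75) and Ddit3 (-2.40) lie among the lower probes and Cebpb (-0.37) in the band that did not pass, while many probes at like levels fell further.

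The genes with the most similar pattern were ranked by root mean square difference of centred log2 values over the 4 arrays, among 10508 genes above the median level. For Cebpa these were Traf7, Ube2s and Cfap300 (differences of 0.020, 0.021 and 0.029). For Cebpb they were Kmt2a, Wnt6 and Tmem43 (0.031, 0.036 and 0.040), none of which passed. For Cebpd they were Tvp23a, Tnrc18 and Ppp2r2b (0.017, 0.031 and 0.033), and for Ddit3 Micall2, Treml1 and Ppox (0.030, 0.039 and 0.039). With 4 arrays in 2 groups, likeness mostly reflects an equal fold change.

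Factors that act upstream of the C/EBP genes moved both ways. Of 15 inducers measured, 6 were lower and 5 higher, against 18.2% lower and 30% higher of 17734 genes (brightest probe of each), with a median log2 change of -0.47 against 0.20 for all genes. Stat5a, a transducer of growth hormone and prolactin signals, read 2097 and 1843 in the controls and 25 and 58 with berberine, at least a 17.8-fold fall to below the floor (limma adjusted p = 0.000131). Stat3, a related factor in early differentiation, fell 3.72-fold (adjusted p = 0.00102), and Ebf1, a factor that binds adipocyte enhancers, fell 5.13-fold (0.00124), a call lost without berberine replicate 2 (0.0502). Zfp467, a zinc finger promoter of adipogenesis, rose 2.54-fold at this probe (adjusted p = 0.00255) and by 1.52 on the log2 scale at its other probe, though the call was lost without either berberine array (0.0586 and 0.0608). Klf4, an activator of Cebpb, fell by 0.84 on the log2 scale, Klf5, which acts with C/EBP proteins on Pparg, fell by 1.15, and Nr3c1, the glucocorticoid receptor, fell by 0.64 (adjusted p = 0.0445). These 3 calls were lost without either berberine array (adjusted p of 0.0697 to 0.237), and under 1 or more other scalings, and Nr3c1 stood at 0.026 after centring. Creb1 stood at a log2 change of 0.38 and did not pass (adjusted p = 0.0808). Pparg is counted among the higher genes, but its probe was under the floor in both groups (29 and 29 in the controls, 37 and 64 with berberine). A single probe this dim cannot tell whether the gene was expressed. After centring, 3 members were lower and 4 higher, in the deposited values 6 and 2, and without berberine replicate 1 or 2 only 4 and 2 members passed, all lower.

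Other basic leucine zipper genes, the potential dimer partners and relatives of the family, split evenly. Of 23 measured, 8 were lower and 8 higher (34.8% each, against 18.2% and 30% of all genes; median log2 change -0.21). Tef, a clock-controlled factor, read 3028 and 2816 in the controls and 113 and 131 with berberine, a 19.2-fold fall (limma adjusted p = 0.000155). Jun, the AP-1 subunit, fell 3.13-fold and Crebl2, a CREB-like gene, 3.04-fold. Batf3, an AP-1 partner of immune cells, rose 3.93-fold (adjusted p = 0.000981). Atf4, which encodes the activator of Ddit3 and a partner of C/EBP proteins, read 106300 and 91042 in the controls and 66502 and 91775 with berberine, so the deposited values overlapped, and its log2 change of -0.47 did not pass (adjusted p = 0.0642; 0.0416 with a trended robust prior). After centring the split was 4 lower and 10 higher, and without berberine replicate 1 or 2 the count past the threshold was 5 in both cases.

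Genes whose products modify C/EBP proteins or control their translation went both ways. Of 24 measured, 11 were lower (45.8%, against 18.2% of all genes) and 6 higher (25%, against 30%), with a median log2 change of -0.16. The counts were 9 and 11 after centring, and 9 or 7 passed in all without berberine replicate 1 or 2. Celf1, an RNA-binding protein that binds Cebpa and Cebpb transcripts, read 8 and 15 in the controls and 2093 and 2491 with berberine, at least a 26.2-fold rise from below the floor (limma adjusted p = 0.000181). This is a single probe near 0 in control. Calr, the chaperone calreticulin, which also binds such transcripts, fell 5.51-fold (adjusted p = 0.000558). Pias4, a SUMO ligase, fell 8.33-fold to a mean (log2 6.85) just above the floor (6.58), so the size of its fold is uncertain. Trib2, a pseudokinase that directs C/EBPα to degradation, rose 3.72-fold (adjusted p = 0.000573). Its relative Trib1 rose by 1.82 on the log2 scale, and at least 1.30-fold at its dimmer probe, and Cop1, the ligase that works with both, did not pass (adjusted p = 0.461). Probes of Gsk3a and Gsk3b, kinases of C/EBPα and C/EBPβ, were under the floor in both groups.

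Among adipocyte genes listed as targets of C/EBP factors, the deepest falls were at Cfd, Cidec, Pnpla3 and Adipoq. Of 19 measured, 12 were lower (63.2%, against 18.2% of all genes) and 2 higher (10.5%, against 30%). The median log2 change was -2.82, and -2.19 to -2.76 under other scalings, and 13 were lower and 0 higher in the deposited values. The 2 higher ones were Slc2a4, the insulin-responsive glucose transporter (log2 change 0.58, limma adjusted p = 0.0156, but 0.122 and 0.109 without berberine replicate 1 and 2, and 0.866 as deposited), and Pparg, under the floor in both groups. That Pparg probe was too dim to tell whether the gene was expressed. Adipoq, the adiponectin gene, read 212190 and 174622 in the controls and 1172 and 1368 with berberine. Cfd, the adipsin gene, read 76644 and 54369 in the controls and 29 and 62 with berberine, and Cidec, a lipid droplet gene, 98378 and 72705 against 81 and 111. None of these groups overlapped, and the falls were 125-fold, at least 717-fold and 848-fold (limma adjusted p = 5.77e-05 for each). With berberine the Cidec mean (log2 6.70) lay just above the floor (6.58), so the size of its fold is uncertain. Pnpla3, a lipase relative, fell at least 108-fold (adjusted p = 5.77e-05) and at least 2.79-fold at its dimmer probe. Insr, the insulin receptor gene, and Cdkn1a, the cell cycle inhibitor p21, did not pass (log2 changes -0.31 and -0.51). These genes share the samples of the Cebpa comparison, and many of them are markers of differentiated fat cells whatever their regulator.

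Acute phase and inflammatory genes, the classic targets of C/EBPβ and C/EBPδ in liver and immune cells, moved both ways. Of 16 measured, 6 were lower (37.5%, against 18.2% of all genes) and 7 higher (43.8%, against 30%). The median log2 change was 0.21, against 0.20 for all genes, and the split was 6 and 4 in the deposited values. Orm1, an acute phase glycoprotein, read 24533 and 23183 in the controls and 122 and 148 with berberine, a 167-fold fall (limma adjusted p = 5.77e-05). Hp, haptoglobin, fell 8.49-fold and Serpina3n, a protease inhibitor, at least 6.06-fold. In the other direction, Ptgs2, the inducible cyclooxygenase, read 588 and 614 in the controls and 3984 and 4460 with berberine, an 8.85-fold rise (adjusted p = 0.000306). Il6, the cytokine, rose by 2.38 on the log2 scale and Saa3, serum amyloid, by 1.24, though Saa3 missed the threshold without berberine replicate 2 (adjusted p = 0.0572) and in the deposited values (0.0846). Without berberine replicate 1 or 2, 8 and 7 members passed.

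The stress pathway that feeds Ddit3 was measured at 14 genes, among them the family members Cebpb and Cebpg. Of these 5 were lower (35.7%, against 18.2% of all genes) and 3 higher (21.4%, against 30%), with a median log2 change of -0.23, and 4 were lower and 6 higher after centring. Hspa5, the endoplasmic reticulum chaperone BiP, read 63562 and 61755 in the controls and 15853 and 17125 with berberine, a 4.27-fold fall (limma adjusted p = 0.000536). Xbp1, a factor of the unfolded protein response, fell by 1.18 on the log2 scale and Ppp1r15b, a phosphatase subunit that acts on eIF2α, fell 2.88-fold (adjusted p = 0.00142, and 0.0506 without berberine replicate 2). The eIF2α kinase genes Eif2ak2, Eif2ak4 and Eif2ak1 rose, by 1.70, 1.29 and 1.15 on the log2 scale, while Eif2ak3, which encodes PERK, did not pass (log2 change 0.65, adjusted p = 0.105) but did after centring (1.26, adjusted p = 0.0225) and without control replicate 1 (0.0168). Without berberine replicate 2, Eif2ak1 and Eif2ak4 missed the threshold (0.0509 and 0.0516), and after centring Xbp1 did (0.0637). Without berberine replicate 2, 4 members of the list passed.

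Known targets of CHOP or ATF4 mostly rose, while Ddit3 itself fell. Of 19 measured, 11 were higher and 4 lower, a share of 57.9% higher against 30% of all genes, with a median log2 change of 0.64. Under the other scalings the median was 0.70 to 1.26 and 9 to 13 members were higher, with 13 higher and 2 lower after centring. Car6, a carbonic anhydrase gene with a CHOP-dependent transcript, read 240 and 170 in the controls and 6816 and 9037 with berberine, a 44.0-fold rise (limma adjusted p = 9.56e-05). Chac1, a glutathione-degrading enzyme, read 7344 and 6670 in the controls and 36323 and 41372 with berberine, a 4.95-fold rise. Ppp1r15a, which encodes the phosphatase subunit GADD34, rose 4.04-fold and Tnfrsf10b, a death receptor, 3.51-fold. Trib3, a pseudokinase that binds ATF4, and Bbc3, the cell death gene PUMA, rose by 1.26 and 2.25 on the log2 scale. A second Bbc3 probe, under the floor in both groups, did not pass (adjusted p = 0.0539). The 4 lower members were Ddit4, an mTOR inhibitor, Ero1b, an oxidase of the endoplasmic reticulum, Atf5, a transcription factor, and Gadd45a, a growth arrest gene, with falls of 1.08 to 1.51 on the log2 scale. Without berberine replicate 1 the calls of Trib3, Atf5 and Gadd45a were lost (adjusted p of 0.0504 to 0.0742), and without berberine replicate 2 those of Trib3, Atf5, Gadd45a and Ddit4 (0.0502 to 0.0741). Atf5 and Gadd45a also missed the threshold after centring (0.0853 and 0.0910). Without berberine replicate 1 or 2, 7 and 6 members passed, 5 of them higher in both cases.

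**Figure D5:**
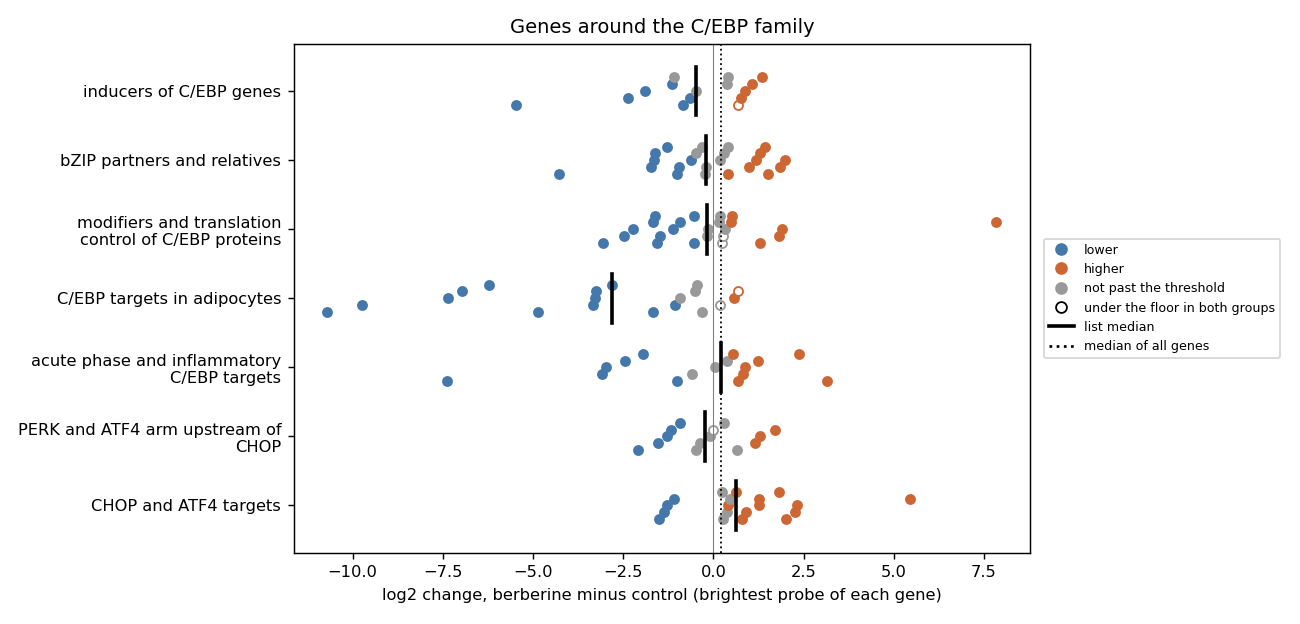
Log2 change (berberine minus control, brightest probe of each gene) of the genes in 7 lists around the C/EBP family, with points coloured by call, open points under the floor in both groups, black bars for list medians and a dotted line for the median of all genes (0.20). The C/EBP targets in adipocytes centre on -2.82 and the CHOP and ATF4 targets on 0.64, and all 7 lists have points on both sides of 0.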

How the data were processed

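Cy5-labelled RNA of the 4 samples was read on 1-colour arrays, per the labels' protocols. The authors deposited a linear intensity per probe, rounded to whole numbers. Scanner, background correction and scaling are not stated, so the zero point is unknown. Groups follow the sample titles, since the treatment text names berberine for all 4 samples. Of 26423 probes, 20377 carried 1 gene symbol and 6046 were unnamed here. Symbols were updated through RefSeq (18213 current, 2126 older, 38 kept). Leaving out 15 probes at or under 0, 26408 log2 intensities were quantile-normalized, because array medians differed by 0.81 (limit 0.5), and fitted with limma 3.58.1 (R 4.3.3; 2 residual and 2.89 prior degrees of freedom). The threshold was an adjusted p of 0.05. Where 1 group lay under the floor (25th percentile, an intensity of 95.8), the fold is the brighter mean over the floor.

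The members and gene lists were chosen with earlier results of these data known. The text names all members, up to 4 genes with the smallest p per list, and up to 3 genes of like pattern for 4 members. Genes named beyond that rule were chosen after their values were seen. Lists are described by counts without a set test. Alternatives were 3 other scalings, a replicate block, a trended robust prior, log2(value + 16), a filter on dim probes, averaged probes, at least a 2-fold change and leaving out each array. Depth does not apply, and the number of arrays limits the precision.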

Additional observations from a re-analysis of the deposited data

How the results depend on the processing

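In all, 11838 probes passed the threshold. It was 6687 in the deposited values and 5806 with at least a 2-fold change added, and 3346 to 10787 without 1 array. With the replicate number as a block, 12760 probes passed and no member's call changed. The numbers share only a label: the difference between replicates 1 and 2 in control and that in berberine correlated at r = 0.0035 across probes. Of the members, Cebpa, Cebpg and Ddit3 kept direction and call in every alternative run. Cebpd lost its call without either berberine array (log2 change -1.38 to -1.07 over the arrays left out), and Cebpb gained one without control replicate 2 (-0.69 to -0.041). Cebpb turned to 0.41 with arrays centred on the median and 0.15 with the 75th percentile. Cebpe, under the floor, turned to 0.0085 as deposited, 0.57 with median centring and 0.31 with the 75th percentile, and ranged from -0.26 to 0.21 without 1 array. It has no value once dim probes are left out. List members past the threshold ranged, without 1 array, over 2 to 11 inducers, 5 to 16 partners, 7 to 15 modifiers, 7 to 12 acute phase genes, 4 to 9 genes upstream of CHOP and 6 to 15 CHOP and ATF4 targets. Inducers past it were 7 after centring, against 11. Where a group was left with 1 array, it was assumed to vary like the other group. The cause of these shifts was not tested. For the list genes named above the floor and 3 preadipocyte markers, 522 values kept direction and side of the threshold, 35 lost the call, 6 gained one and 9 turned sign. Those 9 were Creb1 (-0.013) and Cop1 (-0.26) as deposited, Cop1 without control replicate 2 (-0.094, and up to 0.76 without another array), Nr3c1 (0.026), Atf4 (0.23), Insr (0.34) and Cdkn1a (0.28) with median centring, and Insr (0.080) and Cdkn1a (0.023) with the 75th percentile. Other markers, neighbours and genes of like pattern were not run.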
